A study of Mus musculus with 4 samples.

Results

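The 10 genes described here encode the core proteins that make microRNAs (miRNAs) and carry out silencing with them: Drosha, Dgcr8, Xpo5, Dicer1, the Argonautes Ago1, Ago2, Ago3 and Ago4, and the GW182 proteins Tnrc6a and Tnrc6b. They were chosen by gene symbol, by a rule that uses no measured value but was written with earlier results of these data known, and all 10 were found among the 55141 genes with a TPM value (reads divided by a gene length and scaled to a sum of 1000000 per library). RNA was sequenced from articular chondrocytes that were isolated from femoral head cartilage of 3-week-old mice and cultured. There were 4 libraries, 1 for each of 4 conditions: wild type, miR-26a KO (labelled miR-26a -/-), the same genotype after transfection of a miR-26a mimic, and Cart-miR-23clus KO, in which Col2a1-cre deletes the floxed miR-23a/b clusters. The strain is labelled C57BL/6 for the first, second and last of these and C57BL6/J for the mimic library. Since each condition has 1 library, no difference has a replicate check, so values are given with counting intervals and without p-values. The number of animals behind a library is not given in the sources used here.

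The groups have limits as models. The label of the first library is wild type, and the study's results also speak of wild-type cells for this comparison, whereas its methods name Control cells, defined as floxed mice, so whether the cells carried floxed alleles is not certain. Deletion by Col2a1-cre is limited to cells in which the collagen II promoter is or was active, and other cells of the culture would keep the clusters. The labels describe transfection of either the mimic or a negative control siRNA into miR-26a KO cells, and it is not stated whether the miR-26a KO library without mimic received that control. The listed miRNA genes of the miR-23a/b clusters (Mir23a, Mir27a and Mir23b) and of miR-26a (Mir26a-1 and Mir26a-2) had 0 reads in all 4 libraries, so they give no check of the labels. Depth was similar: 1498579 reads fell on genes of the TPM table for wild type, 1328042 reads for Cart-miR-23clus KO and 1362870 reads for miR-26a KO. For the mimic library 1449246 reads were recovered, a total that leaves out 588 genes with a TPM above 0.

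A miRNA is cut from its hairpin transcript in the nucleus by the Microprocessor, in which the RNase III enzyme Drosha works with the hairpin-binding protein Dgcr8. Exportin 5, encoded by Xpo5, carries the precursor to the cytoplasm, Dicer1 cuts it to a duplex, and an Argonaute keeps 1 strand as its guide. Argonaute bound to a target recruits a GW182 protein, which in turn brings in deadenylases that shorten the poly(A) tail. Ago2 is the Argonaute that can also cut a fully paired target. Loss of Dicer1 or of Drosha and Dgcr8 in chondrocytes is known to impair skeletal growth in mice.

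The mature miRNAs of the study are shown because the seed, bases 2 to 8 from the 5′ end, decides which messages pair with them (seed in capitals, sequences from RefSeq, GRCm38.p6). The deleted miR-23a/b clusters encode the miR-23, miR-27 and miR-24 families, 3 different seeds. Of these, miR-23b-3p is not shown because its sequence was not in the sources used here. The sense strand of the mimic, from the sample labels, had 0 differences from miR-26a-5p, and miR-26b-5p shares its seed.
miR-26a-5p: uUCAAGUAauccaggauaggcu
miR-26b-5p: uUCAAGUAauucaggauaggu
miR-23a-3p: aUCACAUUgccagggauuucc
miR-27a-3p: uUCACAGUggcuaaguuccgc
miR-27b-3p: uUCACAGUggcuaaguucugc
miR-24-3p: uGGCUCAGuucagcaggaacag
The other strand of the mimic had 1 difference from miR-26a-1-3p, A14C (the base of the mature miRNA, its position from the 5′ end, the base of the oligo).
mimic antisense: ccuauucuugguuccuugcacg

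The 4 libraries were first checked against markers of the labelled cell type. All 10 chondrocyte markers, Col2a1, Acan and Sox9 among them, had reads in the 4 libraries, and their summed level was highest in wild type (35057 CPM, reads per 1000000 reads on genes) and lay between 26943 and 28056 in the others. Col2a1 alone made up 23937 CPM of the wild-type sum, and not every marker followed the sum: Comp was lowest in wild type (285 CPM against 495, 338 and 357), and Matn3 was highest in Cart-miR-23clus KO (108 CPM against 76.7 in wild type). Osteoblast markers (7 of 7 with reads) summed to 34125 CPM in wild type, to 6940 in Cart-miR-23clus KO, to 15828 in miR-26a KO and to 18283 in the mimic library. Bglap, 1 of the 7, was at 65.4 CPM in wild type and 66.9 CPM in the mimic library, and did not follow that sum. Macrophage markers (8 of 8) summed to 699, 799, 255 and 432 in the same order, and 6 proliferation genes to 158, 356, 365 and 351. The erythroid markers and the endothelial markers Cdh5 and Tek were at 0 throughout. These lists move between the same libraries as the values that follow, and their part in them was not tested. In bulk RNA fewer cells of a type and less RNA per cell cannot be told apart.

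All 10 genes had reads in all 4 libraries, from 9 reads (Ago4, in wild type as well as Cart-miR-23clus KO) to 210 reads (Tnrc6a in wild type). The libraries were read from the 3′ ends of mRNAs, so the number of reads does not grow with the length of the message, and CPM is the scale used here for levels. On it the mean over the 4 libraries was 137 for Tnrc6a, 70.8 for Ago2, 67.4 for Xpo5, 62.1 for Tnrc6b, 45.4 for Dicer1, 39.2 for Drosha, 27.7 for Ago1, 27.3 for Dgcr8, 26.6 for Ago3 and 8.32 for Ago4. Neighbours in this order had CPM values whose ranges over the 4 libraries did not overlap at 3 steps only: Tnrc6a over Ago2, Tnrc6b over Dicer1 and Ago3 over Ago4. The step of Tnrc6b over Dicer1 was narrow, at a lowest value of 51.1 against a highest of 50.7. The counting intervals of this pair overlapped in wild type, miR-26a KO and the mimic library. Those of Ago3 and Ago4 overlapped in Cart-miR-23clus KO and the mimic library, and those of Tnrc6a and Ago2 in no library. Ago2, Xpo5 and Tnrc6b could not be ordered, nor could Ago1, Dgcr8 and Ago3. Among the 17867 genes with a length that could be recovered, Tnrc6a ranked 1257 and Ago4 9090 by mean CPM.

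**Figure D1:**
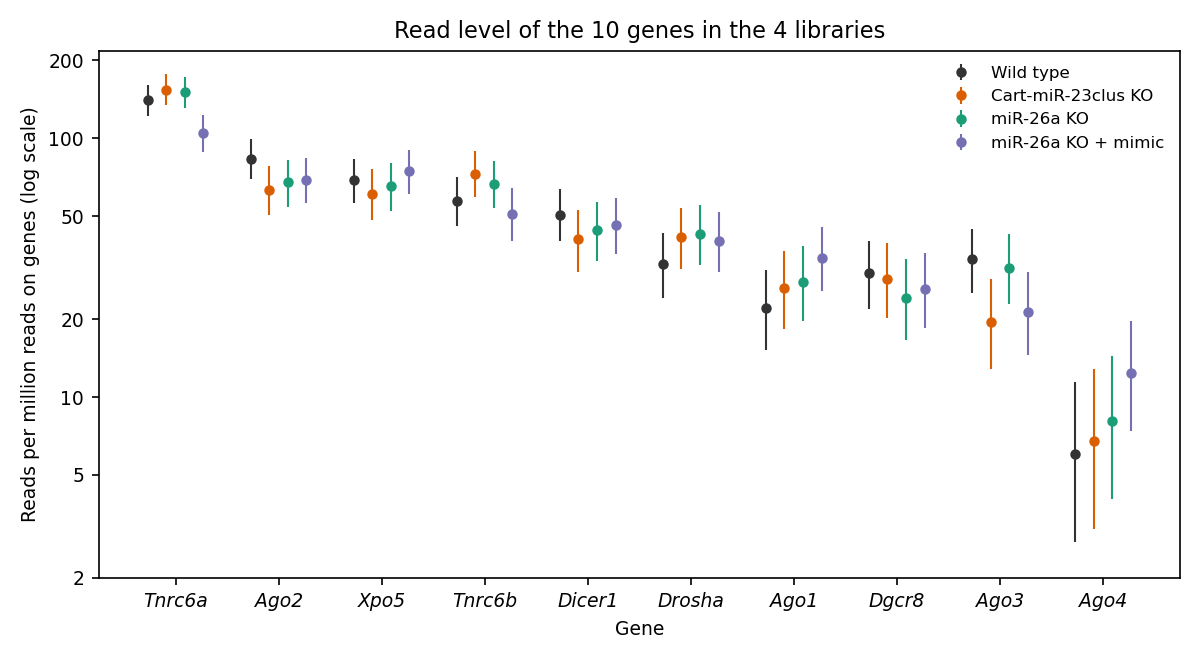
Reads per 1000000 reads on genes (log axis) of the 10 genes in the 4 libraries, ordered by pooled reads. Points are single libraries and bars exact 95% Poisson intervals, which cover counting error only. The intervals of most genes overlap across the libraries, and Tnrc6a in the mimic library lies at 105 against 140 to 154 in the others.

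The deposited TPM gave another order, because the length by which the authors divided was that of 1 annotated transcript, and for a pair of these genes a short one. For 8 of the 10 genes the recovered length was that of the longest protein-coding transcript, or within 51 bases of it (Drosha). For Tnrc6a it was 688 bases, the length of Tnrc6a-209, a transcript with no coding annotation whose 3′ end lies 32633 bases upstream of that of the longest coding transcript of 8183 bases. For Ago3 it was 682 bases, the length of Ago3-204, against 15595 bases. The mean TPM was accordingly 284 for Tnrc6a and 55.7 for Ago3, the first and second of the 10, while the others lay between 1.81 (Ago4) and 18.9 (Xpo5). Divided by the longest coding length instead, Tnrc6a stood at 16.8 CPM per kilobase and remained first, and Ago3 stood at 1.71 and was ninth. Of 13898 protein-coding genes, 682 (4.91%) were divided by less than 20% of their longest coding length, so levels of different genes are not comparable in this TPM. The ratio of 1 gene between libraries is not touched by this.

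**Figure D2:**
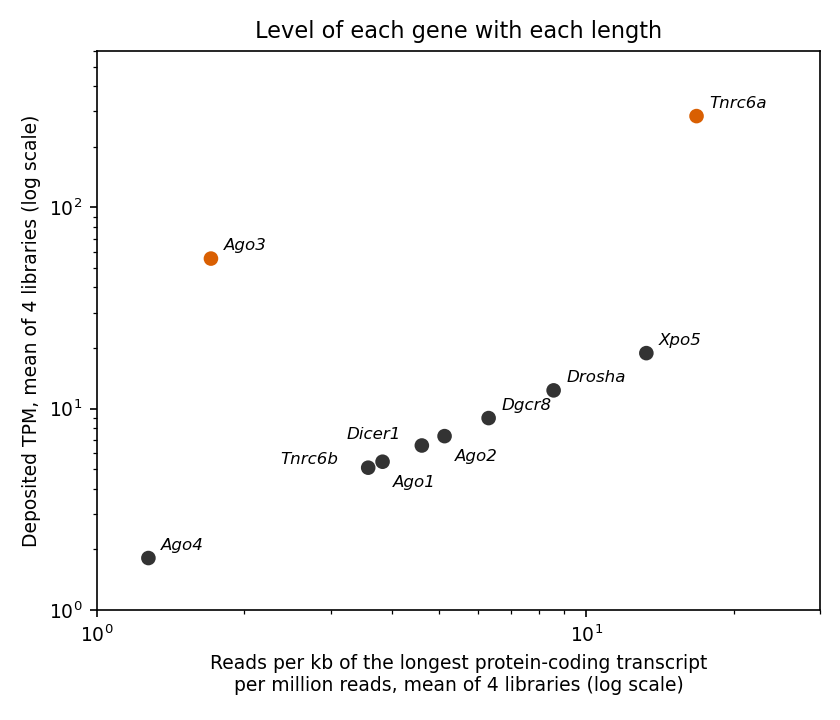
Mean deposited TPM over the 4 libraries against mean CPM per kilobase of the longest protein-coding transcript, both on log axes, for the 10 genes. The genes in orange, Ago3 and Tnrc6a, were divided by 682 and 688 bases and lie above the line formed by the other 8.

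Each comparison is given as the ratio of deposited TPM, with an exact 95% interval from the reads of both libraries and their totals. The interval is centred on the ratio of CPM, which exceeds the TPM ratio by a factor of 1.02 for Cart-miR-23clus KO over wild type, 1.00 for miR-26a KO over wild type and 1.01 for the mimic over miR-26a KO. The first and second comparison share the wild-type library, and the second and the third share the miR-26a KO library, so their values are set side by side and are not independent. Over the 10 genes the median log2 ratio (0.5 TPM added) was 0.00, 0.01 and 0.04 in these comparisons, with 5, 5 and 6 genes higher, against -0.02, 0.02 and -0.00 over all genes with at least 20 reads in the pair of libraries. The reads of all 10 summed gave ratios of 0.981 (0.884 to 1.09), 1.01 (0.908 to 1.11) and 0.909 (0.818 to 1.01) on the scale of CPM. All 3 intervals of the summed machinery include 1.

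None of the 10 genes had a TPM ratio above 2 or below 0.5 in any of the 3 comparisons. For Cart-miR-23clus KO over wild type, 9 of the 10 reached 20 reads in the pair of libraries (Ago4 had 18), and 1 of the 10, Ago3, had an interval below 1, while none was above 1. Of the 9573 genes with 20 reads, 10.7% had an interval below 1 and 13.1% above 1, and 4.73% and 4.38% had a TPM ratio above 2 and below 0.5. For miR-26a KO over wild type no interval of the 10 excluded 1, where 8.55% of 9545 genes lay below and 11.2% above, with 3.88% above 2 and 3.5% below 0.5. For the mimic over miR-26a KO, 1 of the 10, Tnrc6a, had an interval below 1 and none was above, where 4.77% of 9471 genes lay below and 5.45% above, with 1.89% above 2 and 1.46% below 0.5. A single gene of 10 is close to these background shares.

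The other 3 pairs of libraries were added after the data were known. For Cart-miR-23clus KO over miR-26a KO no interval of the 10 genes excluded 1, where 9.39% of 9453 genes lay above and 9.24% below, with 3.99% above 2 and 3.43% below 0.5. For the mimic over wild type 1 gene (Tnrc6a) had an interval below 1, where 7.64% of 9638 genes did and 10.8% lay above, and 2.76% had a ratio below 0.5. Ago3 lay at the edge in this pair, at 0.624 (0.389 to 1.00), and its interval falls below 1, which makes 2 genes, with the TMM factors, the DESeq2 size factors or the TPM scale as offset. For the mimic over Cart-miR-23clus KO 2 genes (Tnrc6a and Tnrc6b, the latter not with a 99% interval) had an interval below 1, where 8.95% of 9534 genes did and 10.5% lay above, with 3.91% above 2 and 3.2% below 0.5. The calls of Tnrc6a rest on the mimic library, which these pairs share with the third comparison.

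**Figure D3:**
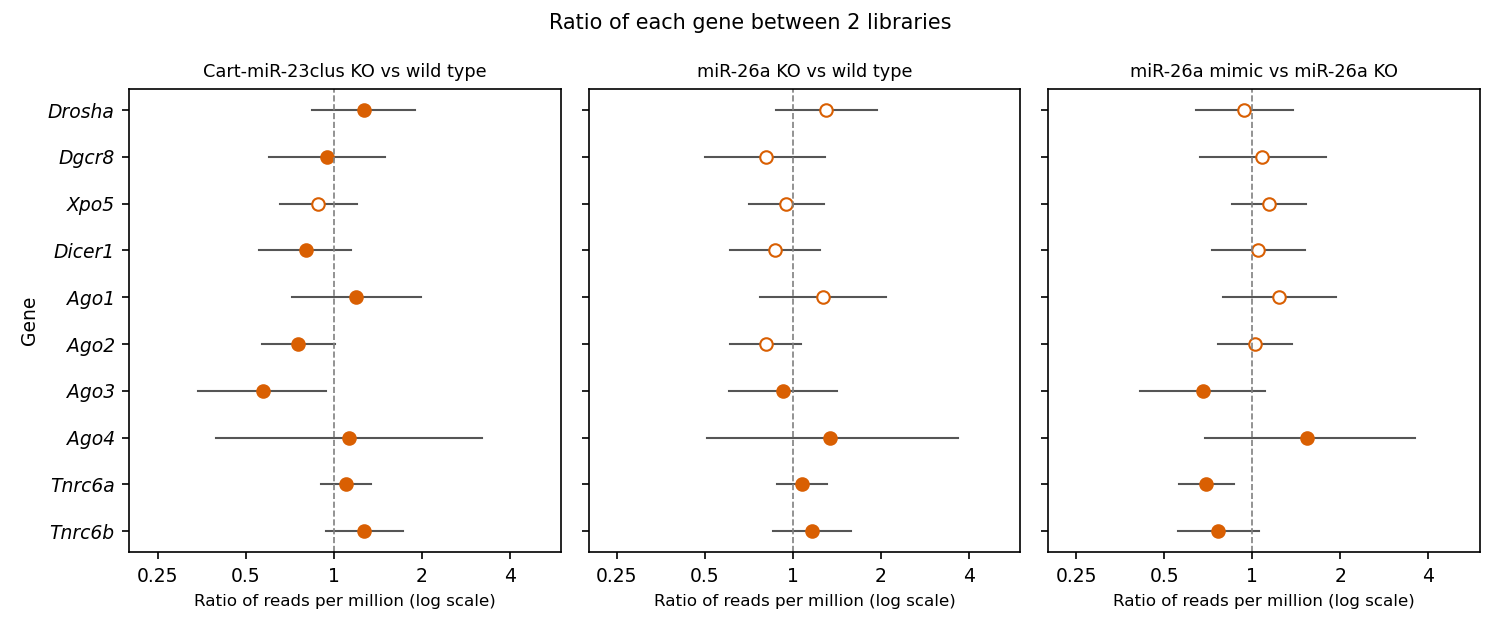
Ratio of CPM of each gene between a pair of libraries, on a log axis, for 3 comparisons; points are ratios and lines exact 95% intervals from reads, which cover counting error only. Filled points mark genes whose 3′ UTR holds a seed match, to miR-23, miR-27 or miR-24 in the left panel and to miR-26 in the middle and right panels. The intervals of Ago3 on the left and Tnrc6a on the right lie below 1, and the others include 1.

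Neither Microprocessor gene had an interval that excludes 1 between libraries. Drosha (chr15:12824815-12935291, plus strand, GRCm38) had 10.4 TPM in wild type, 12.8 TPM in Cart-miR-23clus KO, 13.5 TPM in miR-26a KO and 12.6 TPM in the mimic library. Dgcr8 (chr16:18253948-18289246, minus strand) had 9.97, 9.27, 8.03 and 8.64 TPM in the same order. Drosha was lowest and Dgcr8 highest in wild type, but the intervals overlap. The ratio to wild type in Cart-miR-23clus KO was 1.24 (0.846 to 1.90) for Drosha and 0.930 (0.602 to 1.50) for Dgcr8. The ratio to wild type in miR-26a KO was 1.30 (0.874 to 1.94) for Drosha and 0.805 (0.498 to 1.29) for Dgcr8. The mimic over miR-26a KO gave 0.934 (0.642 to 1.38) and 1.08 (0.661 to 1.78). The reads of Drosha over those of Dgcr8, which need no scaling between libraries, had a ratio of 1.09 (0.712 to 1.67) in wild type, a ratio of 1.45 (0.940 to 2.25) in Cart-miR-23clus KO, of 1.76 (1.13 to 2.78) for miR-26a KO and of 1.53 (0.997 to 2.36) for the mimic library. These 4 intervals overlap, and that of miR-26a KO alone lies above 1. Summed, the reads of both genes gave 1.12 (0.829 to 1.50), 1.06 (0.789 to 1.44) and 0.992 (0.737 to 1.34) in the 3 comparisons. The last exon of Dgcr8 overlaps that of Trmt2a on the other strand, a tRNA methyltransferase gene with 48, 40, 41 and 43 reads. Since strand use in counting is not stated, reads of this pair cannot be told apart.

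Xpo5 and Dicer1, which act after the Microprocessor, had no interval that excludes 1 between libraries either. Xpo5 (chr17:46202782-46243598, plus strand) had 103 reads in wild type, 81 reads in Cart-miR-23clus KO, 89 reads in miR-26a KO and 108 reads in the mimic library, or 19.4, 16.8, 18.4 and 20.9 TPM. Its highest level was 1.24 times its lowest, with Dgcr8 the narrowest span of the 10. Dicer1 (chr12:104687742-104751952, minus strand) had 76, 54, 60 and 67 reads, or 7.38, 5.78, 6.40 and 6.68 TPM. It was highest in wild type. The ratio to wild type was 0.782 (0.555 to 1.15) for Cart-miR-23clus KO and 0.867 (0.608 to 1.23) for miR-26a KO, and the mimic over miR-26a KO gave 1.04 (0.730 to 1.51). The ratios of Xpo5 in the same 3 comparisons were 0.866 (0.655 to 1.20), 0.949 (0.707 to 1.27) and 1.13 (0.854 to 1.53).

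The Argonaute genes lie on 2 chromosomes: Ago1, Ago3 and Ago4 lie near each other on chromosome 4, all on the minus strand (chr4:126435012-126468583, chr4:126331704-126429556 and chr4:126489541-126533472), and Ago2 is on chromosome 15 (chr15:73095844-73184935, minus strand). Ago2 held at least as many reads as the other 3 together in each library. It had 57.3% of the Argonaute reads in wild type (50.5 to 64.0, exact 95% interval), 54.5% (46.3 to 62.6) for Cart-miR-23clus KO, 50.0% (42.6 to 57.4) for miR-26a KO and 50.3% (43.1 to 57.4) for the mimic library. Ago1 had 15.1% to 25.1%, Ago3 15.6% to 23.4% and Ago4 4.13% to 9.05%. In TPM the same reads gave Ago3 72.9% to 83.3% and Ago2 8.70% to 12.1%, on account of the 682-base length of Ago3 described above, and per longest coding length Ago2 had 38.3% to 49.6%.

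**Figure D4:**
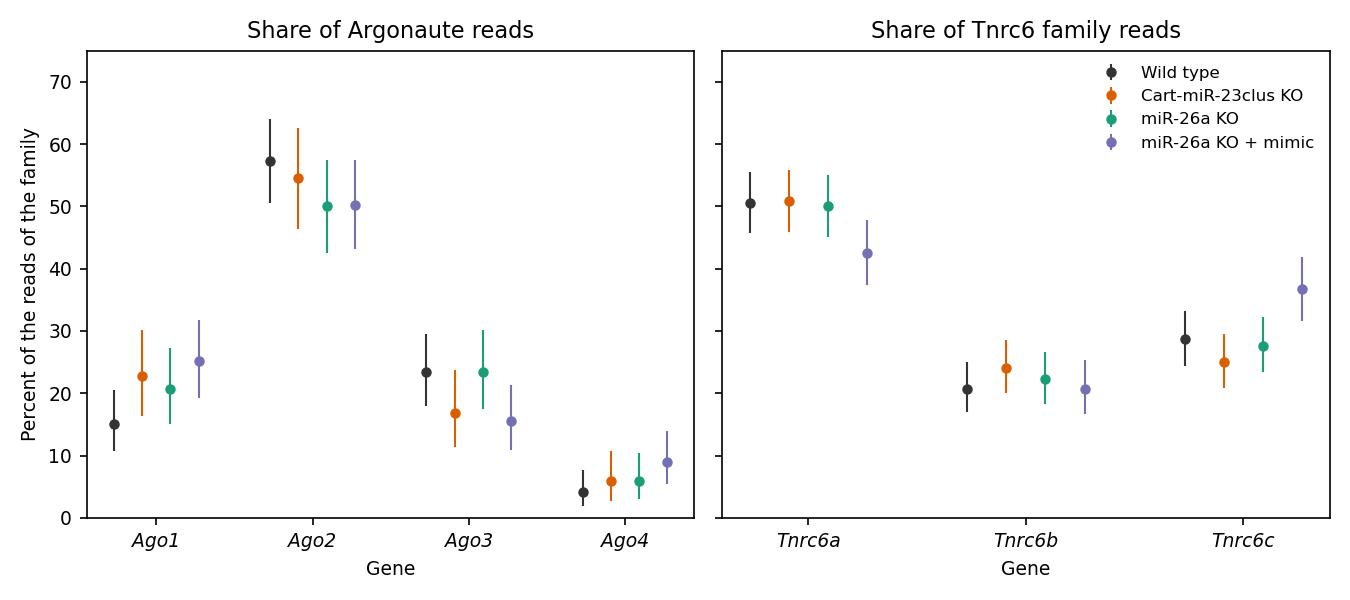
Share of the reads of the 4 Argonaute genes (left) and of the Tnrc6 genes with Tnrc6c (right) in each library, in percent, with exact 95% binomial intervals that cover counting error only. Ago2 has the largest share of Argonaute reads, 50.0% to 57.3%, and Tnrc6a the largest of Tnrc6 reads, 42.6% to 50.9%.

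Ago3 was the gene of this set with the lowest ratio in Cart-miR-23clus KO. It had 51 reads in wild type, 26 reads in Cart-miR-23clus KO, 43 reads in miR-26a KO and 31 reads in the mimic library, or 71.6, 40.2, 66.3 and 44.6 TPM. The level in Cart-miR-23clus KO and that in the mimic library were low beside the other 2. The ratio was 0.561 (0.344 to 0.940) for Cart-miR-23clus KO over wild type, 0.926 (0.603 to 1.42) for miR-26a KO over wild type and 0.674 (0.413 to 1.10) for the mimic over miR-26a KO. That of the mimic over wild type was 0.624, with the interval given above. With a 99% interval that for Cart-miR-23clus KO over wild type includes 1. Its 3′ UTR of 12742 bases is the longest of the 10 and holds 2 matches to the miR-23 seed and 2 to the miR-24 seed and 1 match each to miR-26 and let-7.

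Ago2, the slicing Argonaute, had 125 reads in wild type, 84 reads in Cart-miR-23clus KO, 92 reads in miR-26a KO and 100 reads in the mimic library, or 8.67, 6.41, 7.01 and 7.12 TPM. It was highest in wild type, and the other 3 libraries lay close together. The ratio was 0.740 (0.568 to 1.01) in Cart-miR-23clus KO, where the interval falls below 1 with the TMM factors, the DESeq2 size factors or the TPM scale in place of the library totals. It was 0.808 (0.611 to 1.07) in miR-26a KO and 1.02 (0.762 to 1.37) for the mimic over miR-26a KO. The last exon of Ago2 overlaps an exon of Chrac1 on the other strand, a chromatin remodelling subunit with 26, 32, 24 and 34 reads. The last 500 bases of the longest coding transcript of Ago2, however, share no run of 50 bases with a transcript of another gene on either strand.

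In the same order of libraries, Ago1 had 33, 35, 38 and 50 reads and Ago4 had 9, 9, 11 and 18. Both were highest in the mimic library. Ago1 was lowest in wild type, and Ago4 had the same 9 reads there as in Cart-miR-23clus KO. For the mimic over wild type the TPM ratio of Ago4 was 2.05 (0.882 to 5.23), the only ratio above 2 among the 10 genes in all 6 pairs of libraries, where 3.83% of 9638 genes were above 2. For the mimic over miR-26a KO it was 1.53 (0.688 to 3.61) for Ago4 and 1.23 (0.795 to 1.94) for Ago1. Summed over the 4 Argonautes, CPM gave a ratio of 0.797 (0.644 to 0.984) for Cart-miR-23clus KO over wild type, an interval below 1. That sum rests on Ago2 (TPM ratio 0.740, CPM ratio 0.758) and Ago3 (0.561 and 0.575). Ago1, at 1.17 and 1.20 (0.722 to 1.99), and Ago4, at 1.10 and 1.13 (0.397 to 3.21), lay above 1. No share over other gene families was computed to set beside the sum. The sums gave 0.928 (0.759 to 1.13) for miR-26a KO over wild type and 1.02 (0.828 to 1.25) for the mimic over miR-26a KO. These sums were chosen after the values were known.

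Among the 10 genes the interval that lay farthest below 1 was that of Tnrc6a. This gene (chr7:123123885-123195296, plus strand) had 210 reads in wild type, 205 reads in Cart-miR-23clus KO, 205 reads in miR-26a KO and 152 reads in the mimic library, or 292, 314, 313 and 217 TPM. The first 3 libraries were alike and the mimic library was the lowest. The ratio of the mimic to miR-26a KO was 0.693 (0.562 to 0.864), that to wild type 0.743 (0.603 to 0.927) and that to Cart-miR-23clus KO 0.691 (0.547 to 0.842), and these 3 share the mimic library. The ratios among the other libraries were 1.07 (0.904 to 1.34) for Cart-miR-23clus KO over wild type and 1.07 (0.881 to 1.31) for miR-26a KO over wild type.

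Tnrc6b (chr15:80711313-80941085, plus strand) had 86, 97, 91 and 74 reads in that order, or 4.75, 5.90, 5.52 and 4.19 TPM. It too was lowest in the mimic library. The ratio was 0.760 (0.555 to 1.05) for the mimic over miR-26a KO, 0.883 (0.643 to 1.23) for the mimic over wild type and 0.711 (0.509 to 0.956) for the mimic over Cart-miR-23clus KO. Over wild type the ratio of Cart-miR-23clus KO was 1.24 (0.942 to 1.72) and that of miR-26a KO 1.16 (0.857 to 1.58). Tnrc6c, the other GW182 gene and not among the 10, had 119, 101, 113 and 131 reads and a ratio of 1.08 (0.841 to 1.41) for the mimic over miR-26a KO. Within the family Tnrc6a therefore had 50.6%, 50.9% and 50.1% of the reads in the first 3 libraries and 42.6% (37.4 to 47.9) in the mimic library, where Tnrc6c had 36.7% (31.7 to 41.9). Summed over the 3 genes, the mimic over miR-26a KO gave a CPM ratio of 0.821 (0.710 to 0.948), the mimic over Cart-miR-23clus KO 0.812 (0.702 to 0.938) and the mimic over wild type 0.890 (0.770 to 1.03). Over wild type the sum stood at 1.10 (0.953 to 1.26) for Cart-miR-23clus KO and 1.08 (0.943 to 1.25) for miR-26a KO. Between miR-26a KO and the mimic library, Tnrc6a went from 205 to 152 reads and Tnrc6b from 91 to 74, while Tnrc6c rose from 113 to 131. The lower sum therefore rests mostly on Tnrc6a and is not a fall of each gene. These sums too were chosen after the values were known, and no share over other gene families was computed to set beside them.

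For the seed matches, the longest annotated 3′ UTR among the protein-coding transcripts of each gene was read on the mRNA strand (GENCODE M21). The 10 genes were set beside 13733 genes with such a UTR of at least 50 bases. The letters searched were TACTTGA for miR-26, AATGTGA for miR-23, ACTGTGA for miR-27, CTGAGCC for miR-24 and CTACCTC for let-7, and no match of one overlapped a match of another in these genes. Matches to miR-26 lay in 4 of the 10 (Ago3, Ago4, Tnrc6a and Tnrc6b), against 11.4% of all genes. Of the 3365 genes whose UTR was at least as long as that of Tnrc6a (2345 bases), 26.2% held a match. That length is the shortest among the 4 genes with a match, so this cut was set by the result. Drosha (169 bases), Xpo5 (1327) and Dgcr8 (1574) lie below it, so 26.2% is not a like share for all 10. Matches to miR-23 lay in 5 of the 10 (16.8% of all genes), to miR-27 in 4 (17.7%), to miR-24 in 6 (19.1%) and to let-7 in 2 (10.7%). The UTRs of the 10 run from 169 bases (Drosha) to 12742 (Ago3), against a median of 1199 over all genes, so shares of genes with a match are not comparable at equal length. Per kilobase the 10 genes held 0.0946 miR-26 matches and all genes 0.0778. The rates were 0.151 and 0.124 for miR-23, 0.132 and 0.127 for miR-27, 0.151 and 0.145 for miR-24 and 0.0757 and 0.0732 for let-7. At least 1 match to miR-23, miR-27 or miR-24 lay in 9 of the 10, all but Xpo5, against 41.0% of all genes, a count that the longer UTRs favour.

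Of the 4 genes with a miR-26 match, Ago3, Tnrc6a and Tnrc6b had the 3 lowest ratios of the 10 for the mimic over miR-26a KO, at 0.674, 0.693 and 0.760, and Ago4 had the highest, at 1.53. The 6 without a match lay between 0.934 (Drosha) and 1.23 (Ago1). Only the interval of Tnrc6a excluded 1. For miR-26a KO over wild type the same 4 genes lay at 0.926 (Ago3), 1.07 (Tnrc6a), 1.16 (Tnrc6b) and 1.34 (Ago4), and none of these intervals excluded 1. Over the whole table, for the mimic over miR-26a KO, 8.73% of the 1123 genes with a match and 20 reads had an interval below 1 and 2.94% above, against 3.95% and 5.78% of the 7927 genes without. For Cart-miR-23clus KO over wild type, 13.7% of 3857 genes with a match to miR-23, miR-27 or miR-24 and 20 reads had an interval above 1 and 9.72% below, against 12.8% and 11.2% of 5262 without. Genes with and without a match were not set at equal 3′ UTR length in these shares. Of the 10 genes, 8 had such a match and 20 reads, and none of these had an interval above 1. A match is a run of letters, and pairing of a miRNA at these places was not measured.

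The matches in the GW182 genes come in pairs with similar spacing, and are shown for that reason (reverse complement of the seed in capitals). In Tnrc6a, Tnrc6b and Tnrc6c a miR-26 match is followed 27, 32 and 27 bases downstream by a miR-23 match, starting at base 150, 238 and 582 of the UTR, and each of these 6 matches is followed by an A.
Tnrc6a, miR-26, chr7:123193101-123193107: atcagtttgaaTACTTGAatcatgcaggcc
Tnrc6b, miR-26, chr15:80929714-80929720: cactcttgaaaTACTTGAatcatgaacgcc
Tnrc6c, miR-26, chr11:117761433-117761439: aaacatgcaaaTACTTGAacccagcaggcc
Tnrc6a, miR-23, chr7:123193128-123193134: gccaatattatAATGTGAaagggtatctat
Tnrc6b, miR-23, chr15:80929746-80929752: cctagaaagacAATGTGAagcaagtacaca
Tnrc6c, miR-23, chr11:117761460-117761466: gccaataccgaAATGTGAacacttccacgt
Such a pair, with at most 40 bases between the starts, was found in 15 of the 13733 genes (0.109%), of which these are 3. The window of 40 bases was chosen after the sites were seen, and the 3 genes are paralogs, so the pair counts as a description. Tnrc6c, which holds the pair as well, had the ratio of 1.08 with the mimic given above. Tnrc6b has a second miR-26 match, and the single matches of Ago3 and Ago4 differ in the base that follows, which is A in Ago3 only.
Tnrc6b, second miR-26, chr15:80940340-80940346: ttgttttcttaTACTTGAaaacacttttac
Ago3, miR-26, chr4:126342202-126342208: cgaacagcgggTACTTGAaacagtgctggc
Ago4, miR-26, chr4:126492592-126492598: ggcagttccctTACTTGActggcttttgtg

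The 10 genes were set beside 4 lists of other genes of the pathway, whose counts are read against the shares over all genes: 13.1% of intervals above 1 and 10.7% below for Cart-miR-23clus KO, 11.2% and 8.55% for miR-26a KO (both over wild type), and 5.45% and 4.77% for the mimic over miR-26a KO. Cofactors of nuclear processing (14 genes, 13 with 20 reads) had 2 intervals above 1 and 4 below in Cart-miR-23clus KO over wild type and 0 and 4 in miR-26a KO. Ncbp2, a subunit of the cap-binding complex, had 113 reads in wild type, 59 reads in Cart-miR-23clus KO, 66 reads in miR-26a KO and 96 reads in the mimic library. Its TPM ratio to wild type was 0.575 (0.423 to 0.814) and 0.641 (0.467 to 0.878) in the KO libraries. Srsf3, a splicing factor that also binds miRNA hairpins, was at 0.712 (0.610 to 0.872) and 0.659 (0.549 to 0.791), with 320 reads in wild type against 207 and 192. Ddx17, a helicase of the Microprocessor, was at 0.828 (0.723 to 0.995) in Cart-miR-23clus KO and lower, at 0.766 (0.651 to 0.902), in miR-26a KO, with 367 reads in wild type against 276 and 256. Tardbp, an RNA-binding protein of the nucleus, was at 0.678 (0.524 to 0.876) in miR-26a KO and at 1.32 (1.02 to 1.73) for the mimic over miR-26a KO, the 1 interval of the list that excluded 1 there.

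Chaperones that load Argonaute and partners of Dicer1 (10 genes, 9 with 20 reads) had intervals above 1 for 2 genes in Cart-miR-23clus KO, for 3 in miR-26a KO and for 1 with the mimic, and below 1 for 1 with the mimic. Hsp90ab1, a subunit of the chaperone HSP90, had ratios of 1.08 (1.05 to 1.16) and 1.18 (1.13 to 1.25) in the KO libraries and 0.860 (0.823 to 0.910) for the mimic over miR-26a KO, small differences on 2936 to 3227 reads. Hsp90aa1, its paralog, was at 1.38 (1.25 to 1.59) in Cart-miR-23clus KO. The cochaperones Dnaja2 and Cdc37 were at 1.32 (1.13 to 1.53) and 1.28 (1.06 to 1.56) in miR-26a KO, and Fkbp4, another cochaperone, at 1.28 (1.01 to 1.63) with the mimic.

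Genes that act after Argonaute in translational repression, deadenylation and decapping (28 genes, 26 or 27 with 20 reads) had 3 intervals above 1 and 3 below for Cart-miR-23clus KO, 2 and 1 for miR-26a KO and 3 and 0 with the mimic. In Cart-miR-23clus KO, Dcp2, the decapping enzyme, was at 2.01 (1.33 to 3.22), Cnot1, the scaffold of the CCR4-NOT deadenylase, at 0.629 (0.435 to 0.946) and Eif4enif1, which binds the cap-binding factor eIF4E, at 0.287 (0.0980 to 0.744) on 6 against 23 reads. Edc3, an enhancer of decapping, had 45 reads in wild type, 22 reads in miR-26a KO and 41 reads in the mimic library, with ratios of 0.537 (0.307 to 0.914) for miR-26a KO over wild type and 1.74 (1.02 to 3.09) for the mimic over miR-26a KO. Pabpc1, the poly(A)-binding protein, was at 1.22 (1.15 to 1.36) for Cart-miR-23clus KO and 1.33 (1.22 to 1.44) for miR-26a KO, both over wild type, and at 1.08 (1.00 to 1.17) for the mimic over miR-26a KO. Ddx6, a helicase of the same complexes, was at 1.24 (1.07 to 1.51) and 1.25 (1.05 to 1.49) for the KO libraries over wild type. Cnot2, a further CCR4-NOT subunit, had 88 reads in wild type, 51 reads in Cart-miR-23clus KO, 59 reads in miR-26a KO and 91 reads in the mimic library, so that wild type and the mimic library were nearly level. Its ratios to wild type were 0.638 (0.454 to 0.934) and 0.736 (0.521 to 1.04), and the mimic over miR-26a KO gave 1.44 (1.03 to 2.05).

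Genes of miRNA turnover, tailing and editing (13 genes, 8 with 20 reads) had 0 intervals above 1 and 1 below for Cart-miR-23clus KO, 2 and 1 for miR-26a KO and 0 and 1 with the mimic. Tent2, a poly(A) polymerase that adds adenosines to miRNAs, had 30 reads in wild type, 12 reads in Cart-miR-23clus KO, 9 reads in miR-26a KO and 15 reads in the mimic library, so that all 3 others were lower. Its ratios to wild type were 0.440 (0.210 to 0.908) and 0.329 (0.138 to 0.713). Tut7, which adds uridines to precursors, was at 1.40 (1.00 to 1.96) in miR-26a KO. Its paralog Tut4 had 41 reads in miR-26a KO and 19 with the mimic, a ratio of 0.433 (0.239 to 0.768). Snd1, a nuclease that acts on miRNAs, was at 1.31 (1.07 to 1.60) in miR-26a KO. Lin28a, Lin28b and Trim71, of the early embryonic let-7 pathway, were at 0 reads in the 4 libraries, where 3 reads of 1328042 to 1498579 are the one-sided limit that a count of 0 allows.

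**Figure D5:**
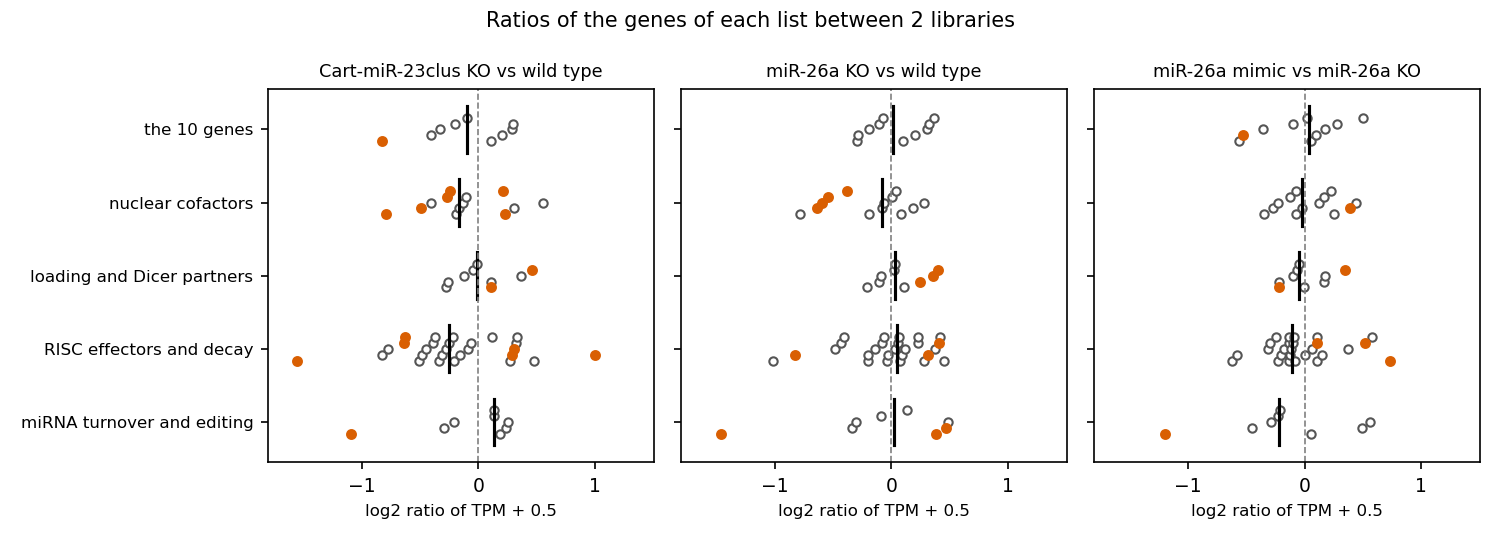
Log2 ratio of TPM (0.5 TPM added) of the genes of each list with at least 20 reads in the pair of libraries, for 3 comparisons. Points are genes, orange where the 95% interval from reads excludes 1, and black bars are list medians; 1 of the 9 genes shown in the top line is orange on the left, 0 of 10 in the middle and 1 of 10 on the right.

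Across the 4 libraries the highest TPM over the lowest was 2.05 for Ago4, 1.78 for Ago3, 1.55 for Ago1, 1.45 for Tnrc6a, 1.41 for Tnrc6b, 1.35 for Ago2, 1.30 for Drosha, 1.28 for Dicer1 and 1.24 for both Xpo5 and Dgcr8. Over the 9540 genes with at least 40 reads in the 4 libraries together the median of this span was 1.50 and 20.3% exceeded 2. Of the 10 genes, 7 lay under that median and 1 exceeded 2. A median has as many genes below it as above, so 7 of 10 is a description only. Counting error alone widens the span of a gene with few reads, and Ago4, with 47 reads in all, had the fewest. The next fewest was 151 (Ago3) and the most 772 (Tnrc6a). The background starts at 40 reads, so it and the 10 genes were not set at equal reads.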

How the data were processed

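RNA was extracted from cultured chondrocytes, and libraries were prepared by the authors from 500 ng of RNA with an oligo(dT)-primed 3′ kit (QuantSeq FWD) and 12 PCR cycles, without molecular identifiers. Reads were mapped to mm10; the aligner, the counter, its use of strand and the annotation are not given in the sources used here. The deposited estimated count, available here for 3 libraries, is unnormalized and whole. The deposited TPM was made by the authors for all 4 libraries, by dividing reads by 1 transcript length per gene. Those lengths were recovered from both tables (17867 genes, all whole numbers within 0.01 bases). Reads of the mimic library were recovered from the steps of its TPM: all 14429 values tested were whole within 0.01 reads, and 588 genes could not be recovered.

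Ratios are of deposited TPM. Intervals are exact Clopper-Pearson intervals at 95% with the library totals as offset, and cover counting error only. No test between conditions was possible with 1 library each. Background shares cover genes with at least 20 reads in a pair of libraries, and log2 values have 0.5 TPM added. All 10 members were named. Of each pathway list, up to 3 genes per comparison with the largest change and an interval excluding 1 were named. Members and lists were chosen with earlier results of these data known. UTRs and positions come from GENCODE M21 (GRCm38), and miRNAs from RefSeq. Alternatives were a 99% interval, edgeR's TMM factors and DESeq2 size factors, CPM, other pseudocounts and filters, and shares in TPM. The TPM scale as offset, shares per longest coding length, family sums and the other pairs of libraries were added after seeing the data. The interval step was tested on simulated data. Factors came from edgeR 4.0.16 and DESeq2 1.42.0 in R 4.3.3, intervals from scipy 1.17.1 in Python 3.11.15, tables from pandas 2.3.3 and numpy 2.4.6, and figures from matplotlib 3.10.9.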

Additional observations from a re-analysis of the deposited data

How the results depend on the processing

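For Cart-miR-23clus KO over wild type, the number of the 10 genes with an interval below 1 was 1 with library totals, 0 with a 99% interval, and 2 (Ago3 and Ago2) with TMM factors, DESeq2 size factors or the TPM scale. The median log2 ratio there was -0.10 over the 9 genes with 20 reads, since Ago4 was left out. The count below 1 for the mimic over wild type was 1 (Tnrc6a) with library totals or a 99% interval, and 2 (with Ago3) with TMM factors, DESeq2 size factors or the TPM scale. That for the mimic over Cart-miR-23clus KO was 2, and 1 (Tnrc6a) with a 99% interval. Over the 6 pairs of libraries, the other counts among the 10 genes were the same with these 4 alternatives, of which those for the 3 added pairs were chosen after seeing the data. Counts in the pathway lists were not recomputed with them. Shares within families depended on the length used. Ago2 had 10.1% of the summed Argonaute TPM for wild type, 12.1% for Cart-miR-23clus KO, 8.70% for miR-26a KO and 11.6% for the mimic library, and 49.6%, 43.6%, 40.7% and 38.3% per longest coding length. Tnrc6a had 95.2%, 95.4%, 95.2% and 93.4% of the summed Tnrc6 TPM in that order, and 58.2%, 59.6%, 58.2% and 49.3% per longest coding length. No paired analysis was possible because there is a single library for each condition. Depth limits the genes with few reads most: 18 reads of Ago4 left an interval from 0.397 to 3.21.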

Other observations

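The germline Argonautes of the Piwi group had fewer than 20 reads in each pair of libraries compared and so entered no count. Piwil1 and Piwil4 had 0 reads in the 4 libraries, whereas Piwil2 had 0 reads in wild type, 9 reads in Cart-miR-23clus KO, 2 reads in miR-26a KO and 10 reads in the mimic library. On these few reads the exact interval of the ratio starts at 2.23 for Cart-miR-23clus KO over wild type, and the TPM ratio of Piwil2 for the mimic over miR-26a KO was 4.67 (1.00 to 44.1).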
